A study of Mus musculus with 6 samples.

Results

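The transcripts of C2C12 myotubes kept in solvent alone are described here from 3 of the 6 libraries of the series, those labelled DMSO. Members were chosen as genes with at least 10 counts in each of these 3 libraries, which 12574 of the 24411 gene symbols had. C2C12 is an immortalised mouse muscle precursor line, labelled WT for genotype. Cultures were grown in medium with 10% FBS, moved to 2% horse serum to differentiate, and then held with DMSO for 72 h. The libraries not used here came from cultures given 10 µM Sardomozide, an inhibitor of the enzyme encoded by Amd1, and no treatment is compared here. The labels give the cell type as myoblasts and the titles give myotubes. They do not say whether the 3 libraries came from separate cultures, so every spread below is a spread between libraries and may be technical. All 3 libraries carry the solvent and come from 1 cell line without nerve, vessel or other tissue cells added, so what the solvent or the line contributes cannot be told apart from the myotube state.

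When serum is withdrawn, myoblasts leave the cell cycle under the myogenic transcription factors Myod1 and Myog, fuse through the membrane proteins myomaker and myomerger, and assemble sarcomeres, the repeating units of thin actin and thick myosin filaments. Many sarcomere proteins exist as developmental, slow and fast forms encoded by different genes, and developing muscle replaces one form with another as it matures under the control of nerve and load. Cells that do not fuse can persist beside the myotubes in such cultures as undifferentiated reserve cells, for which Pax7 is a usual marker.

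The libraries held 25496323, 32108033 and 29792122 counts, and 15000, 15332 and 15216 symbols had at least 1 count. Levels are given as CPM, counts scaled to a common library total, for one gene across libraries. Genes are put in order of level only as TPM, apart from a ranking by counts, and CPM values of different genes include their length. In TPM each count is first divided by the length of the gene's annotated exons. Errors are SD over 3 libraries. The retained genes held at least 99.9% of the counts of each library. They made up 51.5% of all symbols and 59.2% of protein-coding symbols. Each count below of list genes that passed the minimum is to be read beside these shares. The chi-square statistic per degree of freedom between pairs of libraries was 5.45 to 6.88, so no pair looked like 1 library deposited again.

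The cultures expressed the genes of differentiated muscle at high levels, together with Pax7. Acta1, the skeletal muscle actin (chromosome 8, 123891769 to 123894751 in GRCm38), was at 4617, 4993 and 4731 CPM in replicates 1, 2 and 3. Myh3, the embryonic myosin heavy chain (chromosome 11, 67078300 to 67102291), was at 3926, 4301 and 4233 CPM. Myog, the transcription factor that drives terminal differentiation (chromosome 1, 134289989 to 134292548), was at 1100, 1102 and 1121 CPM. For these 3 genes no library stood far from the others, and Myog varied least, with a mean of 1108 ± 11.7 CPM. Ckm, the muscle creatine kinase (chromosome 7, 19404776 to 19422841), was at 281, 336 and 284 CPM, with replicate 2 above the other libraries. Pax7, the transcription factor of muscle stem cells (chromosome 4, 139737062 to 139833528), was at 87.5, 85.1 and 89.9 CPM. In bulk RNA, fewer cells of a type and less RNA per cell cannot be told apart, so the level of Pax7 gives no share of unfused cells.

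Promoter windows of 6 of the muscle genes are shown because these genes carry the contrasts described here: 2 abundant sarcomere genes, their regulator Myog, the kinase Ckm, and the fetal and adult subunits of the acetylcholine receptor. Each window runs 5′ to 3′ on the gene's strand from 250 bases before to 50 after the start annotated by RefSeq in GRCm38.p6. Capitals mark CANNTG, the E-box letters read by Myod1 and Myog. The windows are chr8:123894726-123895025 (minus strand) for Acta1, chr11:67078050-67078349 (plus) for Myh3, chr1:134289754-134290053 (plus) for Myog, chr7:19410844-19411143 (plus) for Ckm, chr1:87205561-87205860 (plus) for Chrng and chr11:70619145-70619444 (minus) for Chrne.
Acta1: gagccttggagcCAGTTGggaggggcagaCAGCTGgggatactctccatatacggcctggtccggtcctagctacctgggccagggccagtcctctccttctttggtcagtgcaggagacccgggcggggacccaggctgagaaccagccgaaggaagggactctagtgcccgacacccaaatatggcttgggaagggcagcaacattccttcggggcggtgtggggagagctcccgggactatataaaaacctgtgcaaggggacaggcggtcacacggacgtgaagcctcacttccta
Myh3: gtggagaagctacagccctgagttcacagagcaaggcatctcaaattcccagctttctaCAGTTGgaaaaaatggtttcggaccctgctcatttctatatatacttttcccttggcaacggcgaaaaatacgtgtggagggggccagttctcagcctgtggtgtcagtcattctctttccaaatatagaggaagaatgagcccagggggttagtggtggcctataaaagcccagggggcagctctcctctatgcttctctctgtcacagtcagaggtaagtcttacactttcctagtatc
Myog: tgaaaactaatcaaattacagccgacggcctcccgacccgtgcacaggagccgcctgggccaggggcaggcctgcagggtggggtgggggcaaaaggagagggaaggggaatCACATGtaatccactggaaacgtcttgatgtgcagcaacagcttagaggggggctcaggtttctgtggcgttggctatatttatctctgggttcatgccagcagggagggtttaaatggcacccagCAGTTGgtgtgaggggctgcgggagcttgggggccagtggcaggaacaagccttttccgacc
Ckm: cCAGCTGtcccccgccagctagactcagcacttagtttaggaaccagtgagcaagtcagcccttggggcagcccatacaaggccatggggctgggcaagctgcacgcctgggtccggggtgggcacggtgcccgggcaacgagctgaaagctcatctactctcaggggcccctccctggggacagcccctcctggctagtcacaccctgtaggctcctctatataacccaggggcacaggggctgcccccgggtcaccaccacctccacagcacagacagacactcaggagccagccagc
Chrng: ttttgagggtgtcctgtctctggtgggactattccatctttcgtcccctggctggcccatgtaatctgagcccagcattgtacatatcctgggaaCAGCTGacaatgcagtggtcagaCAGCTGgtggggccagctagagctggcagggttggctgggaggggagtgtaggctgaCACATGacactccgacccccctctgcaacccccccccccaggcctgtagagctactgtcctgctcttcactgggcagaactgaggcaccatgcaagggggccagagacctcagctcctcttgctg
Chrne: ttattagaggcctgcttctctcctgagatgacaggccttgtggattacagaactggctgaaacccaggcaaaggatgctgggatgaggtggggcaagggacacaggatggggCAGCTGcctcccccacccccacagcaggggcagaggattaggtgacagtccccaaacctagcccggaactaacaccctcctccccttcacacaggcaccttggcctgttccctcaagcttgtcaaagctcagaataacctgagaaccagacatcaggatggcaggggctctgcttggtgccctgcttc

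All 6 printed windows held CANNTG at least once, while the window of Pax7, which is not printed, held neither CANNTG nor TATAAA. Chrng had 3 matches, of which 2 read CAGCTG, and Acta1 had 2 matches, of which 1 read CAGCTG. Ckm and Chrne each had 1 match, which was CAGCTG, while the matches of Myh3 and Myog had other centre letters. TATAAA was found in the windows of Acta1 and Myh3 only among these 6. Matches were searched on both strands, and CAGCTG is one form of CANNTG, so the counts of these motifs overlap. A match is a run of letters and was not tested as a binding site.

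Across the 32851 windows of the RefSeq table, 16.3% held CAGCTG, 72.3% held CANNTG, 3.69% held the simplified MEF2 motif (CTA, any 4 bases, TAG) and 13.6% held TATAAA. Windows of genes on the muscle lists that passed the count minimum (107 windows of 86 genes) held CAGCTG in 37.4%, CANNTG in 84.1%, the MEF2 motif in 10.3% and TATAAA in 16.8%. For all genes that passed the minimum the shares were 15.8%, 63.6%, 3.13% and 7.11%. Windows of ribosomal protein genes held CAGCTG in 4.11%. Base composition differed between the sets too, with a median of 6 CpG per window for the muscle lists, 20 for all genes that passed, 22 for ribosomal proteins and 3 for genes without a count, and its part in these shares was not tested.

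The most counted transcripts mixed muscle, matrix and general growth genes. By CPM, the ribosomal RNA precursor Rn45s came first at 11682, 9413 and 9091 CPM, followed by the translation factor Eef1a1 at 7080 ± 157, the imprinted noncoding RNA H19 at 6991 ± 568, fibronectin (Fn1) at 6543 ± 841 and collagen III (Col3a1) at 5612 ± 529.9. Rn45s has no gene model in the annotation used and its level depends on how ribosomal RNA was handled in library preparation, which is not given in the sources used here. Acta1, the matrix protein Sparc and Myh3 were also among the 10 most counted genes. The 10 most counted genes held 5.70 ± 0.155% of all counts, the top 100 held 20.8 ± 0.124% and the top 1000 held 53.2 ± 0.082%. Per length the order changed, and only 10 genes were in the top 20 of both rankings.

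Acta1 led the ranking per length, at 12300 ± 398 TPM. It stood at 11954, 12736 and 12210 TPM in the 3 libraries, while H19 ranged from 10375 to 12029 and Eef1a1 from 11088 to 11410. Acta1 was above both in every library, and H19 and Eef1a1 did not keep an order. The fast regulatory light chain Mylpf came next at 8569 ± 321 TPM, followed by the galactose-binding lectin Lgals1 at 7260 ± 299, the actin-sequestering thymosin Tmsb10 at 6580 ± 263 and the slow and cardiac troponin C gene Tnnc1 at 5459 ± 265. The top 20 also held the sarcomere genes Tnnc2, Tnnt3, Tpm2 and Mybph, the intermediate filament gene Des, and Acta2, the smooth muscle actin that precursor cells of muscle also express.

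Gene groups took like parts of the pool in the 3 libraries. The 75 genes of the contractile families and sarcomere list, 70 of which passed the minimum, held 5.17%, 5.57% and 5.34% of counts and 7.64% of summed TPM, and 19 of them were in the top 100 by TPM. The 34 matrix genes held 4.55%, 3.99% and 4.39% of counts and 2.47 ± 0.161% of summed TPM. Counts of contractile genes were 1.14, 1.40 and 1.22 times those of the matrix list in replicates 1, 2 and 3, so contractile counts exceeded matrix counts in each library, by most in replicate 2. These count ratios include gene length, and the shares of summed TPM, 7.64% and 2.47%, lay further apart. The 85 ribosomal protein symbols held 2.63 ± 0.0694% of counts but 6.39 ± 0.178% of TPM. The 30 cell cycle genes held 0.106 ± 0.00211% of counts.

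**Figure D1:**
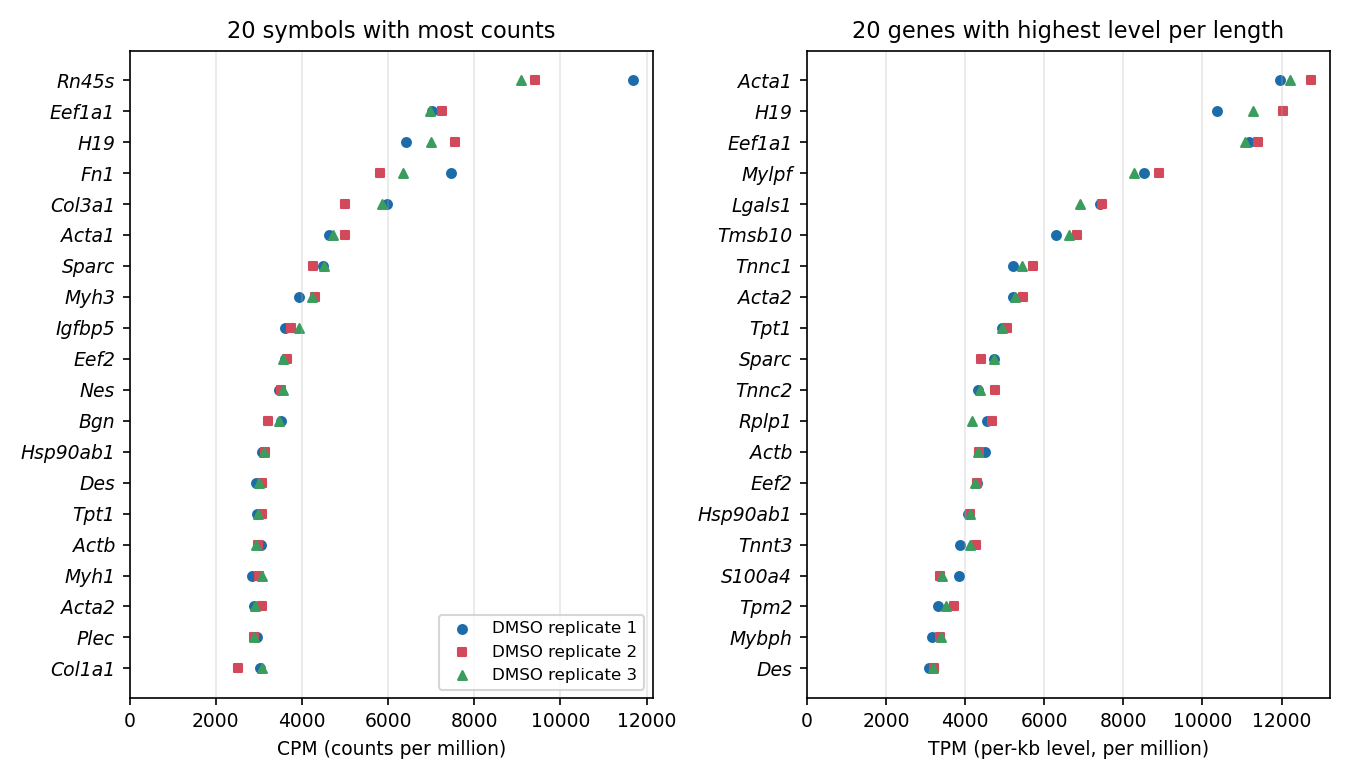
The 20 symbols with the highest mean CPM (left, linear axis) and the 20 genes with the highest mean TPM (right, linear axis), with 1 symbol per DMSO library. Rn45s leads by CPM with replicate 1 apart at 11682, and Acta1 leads by TPM with a mean of 12300.

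The myosin heavy chain pool joined an embryonic and an adult fast form. Myh3 made up 50.03%, 50.94% and 50.04% of the sarcomeric heavy chain level per length (50.3 ± 0.521%). Myh1, the adult fast IIx form, made up 34.5%, 34.0% and 34.5%, and Myh4, the adult fast IIb form, 6.37 ± 0.375%. The perinatal Myh8 followed at 3.83 ± 0.0734% (6.97% without a correction for length), the slow Myh7 at 2.84 ± 0.137%, the fast IIa Myh2 at 1.13 ± 0.130% and the cardiac alpha form Myh6 at 0.343 ± 0.0120%. Per length of all exons, each of these forms stood above the next in all 3 libraries. Myh8 was above Myh4 under the other length choices, for example at 6.97% against 5.93% without the correction. The developmental forms Myh3 and Myh8 together gave 54.2 ± 0.471%, and the fast adult forms Myh1, Myh2 and Myh4 gave 41.8 ± 0.573%. Heavy chain genes, like actins, share long stretches of sequence. How reads that match several genes were counted is not given in the sources used here, so shares within such families are uncertain beyond the SD between libraries. In non-muscle cells and precursor cells the heavy chain Myh9 serves the cytoskeleton, and it made up 92.1 ± 0.274% of the non-sarcomeric heavy chains.

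Light chains also combined fast and developmental forms. The fast essential light chain Myl1 held 54.9 ± 0.664% of its family, and Myl4, expressed in embryonic muscle and in atria, held 21.7 ± 0.408%. Counted without length, Myl1 still led, at 41.2% against 36.4% for Myl4. The slow and ventricular Myl3 had 2, 0 and 1 counts, all within the 3 counts that a count of 0 allows. Myl6b, also classed with the slow forms, held 9.50 ± 0.316% of the family, and the non-muscle Myl6 held 13.9 ± 0.365%. Among regulatory light chains Mylpf held 80.9 ± 0.449%, the non-muscle Myl12a 11.7 ± 0.259% and the slow Myl2 0.315 ± 0.0291%. Per kilobase of the longest transcript Myl2 held 0.490%. Counted without length, Mylpf held 63.0% and Myl12a 28.8%.

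Thin filament genes included slow and cardiac forms beside fast ones. Among actins Acta1 held 44.7 ± 0.502%, Acta2 19.3 ± 0.0337%, the cytoplasmic Actb 16.0 ± 0.628%, the cardiac Actc1 11.3 ± 0.528% and the cytoplasmic Actg1 7.76 ± 0.451%. Acta1 led under every length choice, but below it the order depended on length. Actb was above Acta2 under each other choice, for example at 19.4% against 18.2% per kilobase of the longest transcript. Without a correction for length Acta1 fell to 35.4%, and Actg1 held 10.6% against 9.42% for Actc1. Of the 2 striated actins alone, Actc1, which embryonic skeletal muscle also expresses, held 20.2 ± 0.598%. The slow troponin C gene Tnnc1 held 54.9 ± 0.491% and its fast partner Tnnc2 45.1 ± 0.491%, in the same order in each library. The slow troponin I gene Tnni1 held 53.2 ± 1.07% and the fast Tnni2 46.7 ± 1.09%, but Tnni2 fell to 26.7% without a correction for length. For troponin T the fast Tnnt3 held 60.3 ± 0.590%, the slow Tnnt1 27.3 ± 0.603% and the cardiac Tnnt2 12.4 ± 0.247%. This order depended on length, since Tnnt2 led without the correction (38.2% against 37.9% for Tnnt3). Tpm2 held 57.3 ± 1.49% of tropomyosin, and Tpm4 and Tpm1 overlapped between libraries at 19.5 ± 1.24% and 19.2 ± 0.177%. Without the correction Tpm1 held 34.7% and Tpm4 11.98%.

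At the Z-disc, where thin filaments are anchored, the fast-fibre actinin Actn3 held 59.7 ± 0.860% of its family and the common muscle form Actn2 11.2 ± 0.716%. Actn3 fell to 45.0% without a correction for length. The slow myosin-binding protein Mybpc1 held 65.2 ± 2.79% and the fast Mybpc2 34.7 ± 2.78%. The titin gene Ttn and the nebulin gene Neb, whose giant proteins set filament spacing and length, were at 1656 and 1345 CPM. Per length they were at 56.0 ± 4.44 and 200 ± 14.6 TPM. Of the 45 sarcomere genes 44 passed the minimum, and none was without a count.

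**Figure D2:**
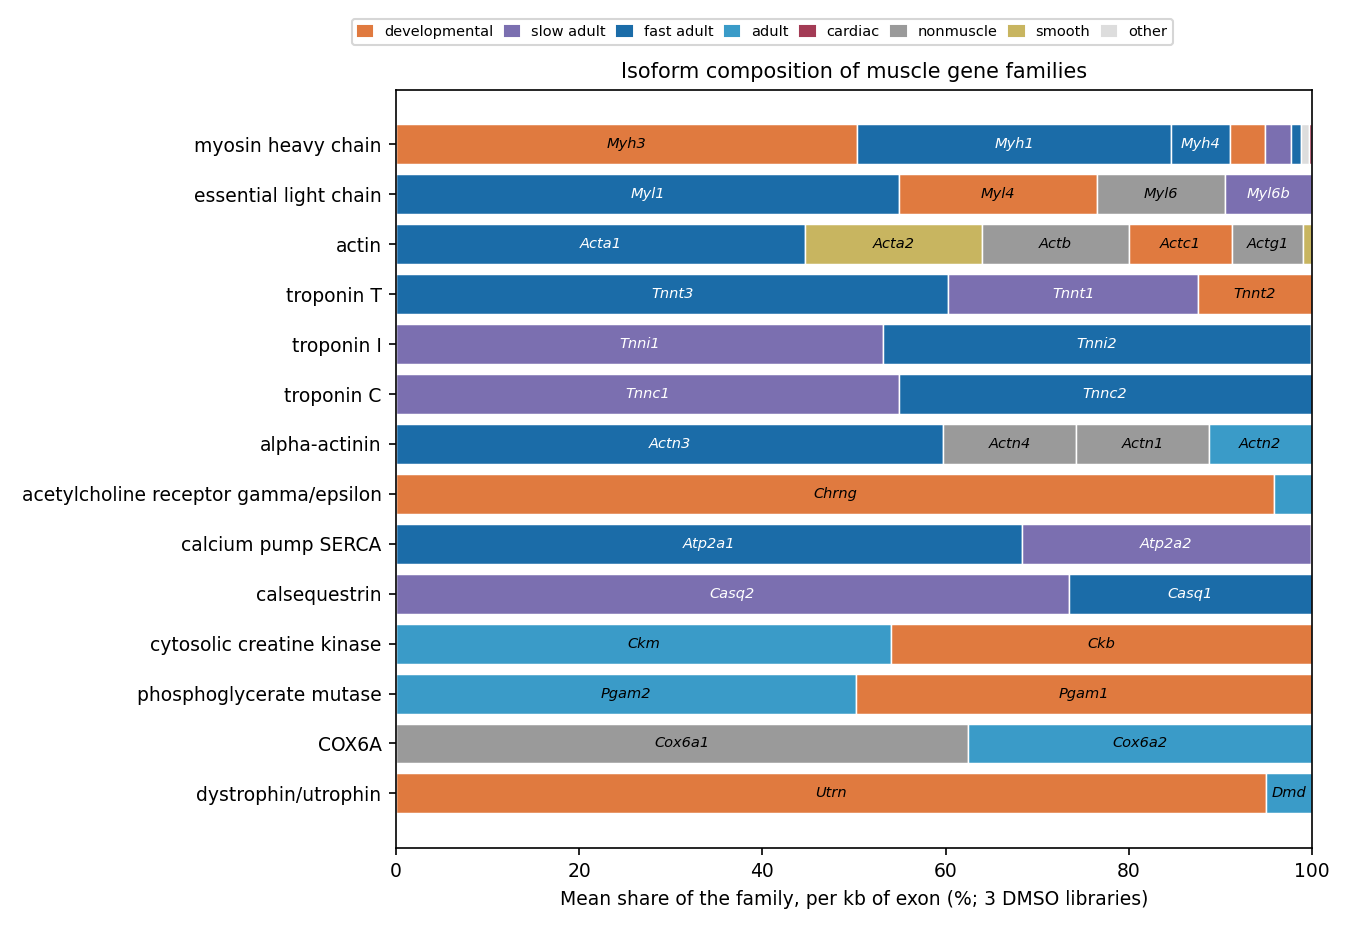
Share of each gene in its family's level per kilobase of exon (x axis, %), mean over 3 DMSO libraries, with 1 stacked bar per family and colours for the form of the gene (Tnnt2 and Actc1, forms of both heart and embryonic muscle, are coloured as developmental). Myh3 fills 50.3% of the heavy chain bar and Chrng 95.9% of the receptor subunit bar, while Ckm and Ckb divide the creatine kinase bar at 54.0% and 46.0%.

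Among transcripts of neuromuscular junction genes, the fetal receptor subunit prevailed over the adult one. The acetylcholine receptor of fetal muscle contains the gamma subunit, encoded by Chrng, which innervated muscle replaces with epsilon, encoded by Chrne. Chrng made up 96.1%, 96.1% and 95.6% of the pair per length, and Chrne was at 11.5, 12.1 and 14.1 CPM. The share of Chrne, 4.08 ± 0.306% per length, was 1.70% without the correction. Per length Chrng was at 689 ± 28.6 TPM and Chrne at 29.4 ± 3.24 TPM, and both promoter windows printed above hold CAGCTG. The other subunits were Chrna1 at 1288 ± 31.7 TPM, Chrnd at 437 ± 11.2 TPM and Chrnb1 at 327 ± 8.12 TPM, and the kinase Musk, which organises the junction, was at 154 ± 5.68 TPM. All 19 junction genes passed the minimum.

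The calcium release system carried mainly its muscle forms. The release channel Ryr1 held 95.2 ± 0.194% of ryanodine receptor level and Ryr3, which young muscle also expresses, 4.82 ± 0.193%. Cacna1s, the voltage sensor of skeletal muscle, was at 478 CPM, and its relatives Cacna1c and Cacna1d had no count. The fast calcium pump Atp2a1 held 68.3 ± 0.471% and the slow Atp2a2 31.5 ± 0.451%, or 55.2% and 44.6% without a correction for length. Calsequestrin, which stores calcium in the reticulum, was mainly Casq2, the cardiac and slow form, at 73.5 ± 0.346%. In the sarcolemma, utrophin (Utrn), which precedes dystrophin in development, held 94.97 ± 0.218% and dystrophin (Dmd) 5.03 ± 0.218%, at 23.9 ± 1.42 CPM. Of 32 excitation-contraction genes 29 passed the minimum, and of 22 genes of the membrane complex all 22 did.

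Energy metabolism mixed muscle and general forms. Muscle forms led enolase (Eno3, 98.9 ± 0.0939%), glycogen phosphorylase (Pygm, 91.2 ± 0.497%) and phosphofructokinase (Pfkm, 85.9 ± 0.593%). Pfkm fell to 71.7% without a correction for length. The enolase share rests on a near absence of Eno1, which had 0, 13 and 5 counts. Eno1b, a near-identical copy of Eno1, was at 184, 187 and 178 CPM, and with it in the family Eno3 held 85.4 ± 0.315%. Ckm held 53.6%, 56.3% and 52.1% of cytosolic creatine kinase against Ckb, the brain and embryonic form. The muscle and general phosphoglycerate mutases Pgam2 and Pgam1 overlapped at 50.2 ± 2.25% and 49.8 ± 2.25%, and Pgam1 led under each of the other 3 length choices, with 52.5% to 70.0%. For lactate dehydrogenase, Ldha held 96.7 ± 0.327%.

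Muscle forms were the minority in the respiratory chain and in glucose transport. In cytochrome c oxidase the muscle subunits Cox6a2, Cox7a1 and Cox8b held 37.6 ± 2.20%, 15.7 ± 1.29% and 13.8 ± 1.08% of their families. Without a correction for length Cox7a1 held 9.55% and Cox8b 8.53%. The insulin-responsive glucose transporter Slc2a4 held 5.45 ± 0.539%, with Slc2a1 making up the rest. Eef1a2, the elongation factor form of adult muscle, held 0.0351 ± 0.00990% of its family beside Eef1a1. Within the 34 families, the leading gene was the same under all 4 treatments of length in 30. Besides troponin T and phosphoglycerate mutase, the leader differed for the adenine nucleotide translocases, where Slc25a5 led per length with 54.8% and Slc25a4 led without it with 54.1%. It also differed for intermediate filaments, where Des led per length with 45.8 ± 1.03% and Nes led without it with 41.7%.

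Myog led the myogenic regulators. It was at 2930 ± 42.3 TPM, followed by Myod1, which commits cells to the muscle lineage, at 589 ± 7.14 TPM, and by Mef2d, a partner factor of both, at 194 ± 7.95 TPM. Mef2c was at 141 ± 3.49 TPM and Mef2a at 120 ± 2.39 TPM. These 5 factors kept this order in each library, but below Myog the order depended on length. Without it, Mef2c was at 559 CPM, Mef2a at 445 CPM, Mef2d at 294 CPM and Myod1 at 277 CPM. Myf5, which marks early precursor cells, was at 11.7 CPM, and Myf6, which adult fibres express most, at 3.91 ± 0.517 CPM. Mef2b had no count, and the other 11 of the 12 factors passed the minimum.

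The fusion genes were present with them. Myomaker, listed under its older symbol Tmem8c, was at 2113 ± 89.4 TPM, and myomerger, listed as Gm7325, at 344 ± 17.1 TPM. The adhesion genes Itga7 (an integrin), Cdh15 (M-cadherin) and Ncam1 were at 979 ± 7.19, 780 ± 8.06 and 523 ± 9.22 TPM. Of 21 fusion genes 18 passed the minimum. Nphs1 and Adgrb3, surface proteins tied to fusion, had no count.

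Genes used as markers of reserve and satellite cells were measured too, with 20 of 24 passing the minimum, which 51.5% of all symbols passed. Per length, Pax7 was at 59.0 ± 1.97 TPM, the phagocytic receptor Megf10 at 301 ± 1.64 TPM, the Notch receptor Notch3 at 155 ± 5.47 TPM and the Notch target Heyl at 107 ± 6.68 TPM. The growth factor antagonist Spry1 was at 129 ± 5.39 TPM and the adhesion molecule Vcam1 at 35.6 ± 3.52 TPM. Some of these genes are also expressed by other cells, so the list does not count cells. Cd34, a surface marker of quiescent satellite cells, was at 44.6, 36.7 and 48.2 CPM. Replicate 2 was lowest for both Cd34 and Pax7, but the list as a whole did not share this. Of its 20 retained genes, 4, 7 and 9 were lowest in replicates 1, 2 and 3. Pax3, the paralog of Pax7, had 3, 0 and 0 counts, and Calcr, Chodl and Dlk1 had no count.

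Cell cycle transcripts were detected for every gene of the list. All 30 passed the minimum, with a median of 24.4 CPM, and the median of all genes that passed was 28.9 CPM. Mki67, the proliferation marker, was at 106, 106 and 102 CPM, and Rrm2, a subunit of the enzyme that makes deoxynucleotides, at 112 CPM. The topoisomerase Top2a was at 91.8 CPM. Mki67 was alike in the 3 libraries. Top2a was at 97.9, 92.1 and 85.6 CPM and Rrm2 at 117, 113 and 106 CPM in replicates 1, 2 and 3. Cdkn1a, the cyclin-dependent kinase inhibitor that rises when myoblasts leave the cycle, was at 1899 ± 73.9 CPM, and Ccnd3, the cyclin kept in myotubes, at 520 CPM. Ccnd1, the cyclin of growing myoblasts, was at 30.6 CPM.

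Adult-fibre genes spanned a wide range per length, and all 30 passed the minimum. At the upper end stood the enolase Eno3 at 2411 ± 48.7 TPM, Atp2a1 at 1977 ± 95.4 TPM, the oxygen-binding myoglobin (Mb) at 1962 ± 128 TPM, Myh1 at 1848 ± 67.4 TPM and Actn3 at 1315 ± 51.1 TPM. Atp2a1, Mb and Myh1 overlapped between libraries, though Myh1 was the lowest of these within each library. Ckm was at 407 ± 39.2 TPM. The members at the lower end were named after their values were seen. They were the chloride channel Clcn1 at 1.06 ± 0.212 TPM, the mitochondrial coactivator Ppargc1a at 1.63 ± 0.187 TPM, the thin filament capping protein Tmod4 at 2.87 ± 0.0679 TPM, Eef1a2 at 3.95 ± 1.18 TPM, the kyphoscoliosis peptidase Ky at 4.29 ± 0.443 TPM, Slc2a4 at 5.95 ± 0.533 TPM and parvalbumin (Pvalb), a calcium buffer of fast fibres, at 6.24 ± 2.66 TPM. The mitochondrial creatine kinase Ckmt2 was at 17.6 ± 4.03 TPM. Sln, a regulator of the calcium pump on the excitation-contraction list, was at 0.249 CPM and did not pass the minimum.

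**Figure D3:**
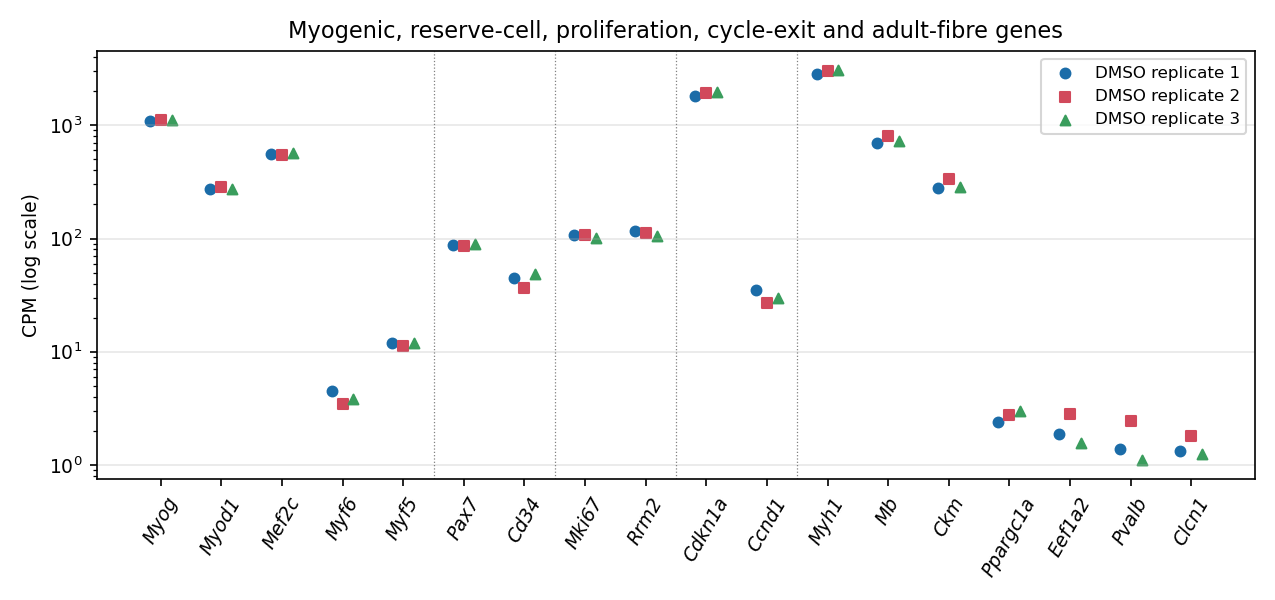
CPM (log axis) of genes of differentiation, reserve cells, the cell cycle and adult fibres, with 1 point per DMSO library. The libraries of a gene lie close together compared with the distance between Myog at 1108 CPM, Pax7 at 87.5 CPM and Pvalb at 1.65 CPM; differences between genes on this axis include transcript length.

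Imprinted genes fell into counted and uncounted loci. H19 (6417, 7553 and 7003 CPM) and its neighbour on chromosome 7, the growth factor Igf2 (634 ± 60.8 CPM), were high. The linked genes Dlk1, Meg3, Rian and Mirg on chromosome 12 were at 0 throughout. The limit of 3 counts that a 0 allows equals 0.0934 to 0.118 CPM here and covers counting error only. Among secreted muscle factors, myostatin (Mstn), which limits muscle growth, and osteocrin (Ostn) had no count either, and 19 of 26 genes of that list passed the minimum.

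Some genes that most cells use were also at or near 0. Of the 74 such genes listed, Oaz1, which encodes the antizyme of polyamine synthesis, had no count. Amd1 had 0, 3 and 0 counts, and Eno1 the counts given above. Hnrnpa1, a splicing factor, had 62, 135 and 108 counts. These genes have near-identical copies elsewhere in the genome, and the effect of how such reads were counted was not tested. Their counts therefore do not show that the transcripts were absent from the cells.

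No count was seen for 8131 of the 24411 symbols (33.3%). Olfactory receptors had none for 1107 of 1125 symbols, vomeronasal receptors for 328 of 337, and the keratin-associated proteins for 53 of 53. Cytochromes P450 had none for 71 of 105 symbols and keratins for 31 of 52. Of protein-coding symbols 5622 of 20512 had no count and 12133 passed the minimum. Of these protein-coding genes without a count, 4.82% overlap an exon of another gene on the same strand, against 8.30% of those that passed. Of 1180 symbols of miRNA genes 996 had no count, in libraries whose labels state total RNA and no selection for small RNA.

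Markers of other cell types were partly counted. Over 11 lists and 86 entries, 28 (32.6%) had no count, 59 (68.6%) were under 1 CPM and 30 (34.9%) passed the minimum. Over all 24411 symbols, 33.3% had no count, 51.0% were under 1 CPM and 51.5% passed. Of the 8 fat cell genes, 6 were at 0, among them adiponectin (Adipoq), perilipin (Plin1), Fabp4 and leptin (Lep), while the transcription factors Cebpa and Pparg were at 28.3 and 3.65 CPM. In other lists, the leukocyte antigen Ptprc, the endothelial receptor Kdr and the epithelial adhesion molecule Epcam were at 0, and Vwf, the clotting factor of endothelium, was at 2.42 CPM. The epithelial cadherin Cdh1 and the keratin Krt14 were at 4.73 and 3.11 CPM. Of the 8 heart genes 4 passed the minimum, with Myh6 at 31.5 CPM and the transcription factor Gata4 at 13.5 CPM. Summed levels were 2.27 to 2.58 CPM for the blood list, 2.67 to 3.73 CPM for endothelium and 0 to 0.0311 CPM for liver. The fibroblast list summed to 386 to 451 CPM, of which the platelet-derived growth factor receptor Pdgfrb alone was 371 CPM, while Pdgfra was at 16.9, 13.3 and 14.8 CPM and Tcf21 at 0. The tendon factor Scx was at 175 CPM, the cartilage factor Sox9 at 68.9 CPM and the bone factor Runx2 at 52.9 CPM. The cartilage proteoglycan Acan and the bone sialoprotein Ibsp were at 0, and the bone matrix protein Dmp1 was at 19.8, 17.9 and 20.7 CPM. In the smooth muscle list, Acta2 was at 2951 CPM and Tagln at 531 CPM, genes that myoblasts also express, and the calponin Cnn1 at 19.8 CPM.

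The libraries agreed closely for most genes. The coefficient of variation (CV, the SD over the mean) of CPM had a median of 5.26% over the 12574 genes. The spread expected from counting alone had a median of 2.89%. That value is calculated from the counts, whereas each CV is estimated from 3 libraries, so these medians are not fully alike. Between 10 and 100 CPM the median was 4.72%, against 2.67% from counting, and at 1000 CPM or above it was 3.27%, against 0.390%. Depth therefore limited precision mainly for low genes, since below 1 CPM the median was 25.9% and the spread expected from counting was 19.4%. The biological coefficient of variation of edgeR, which removes the counting part, was 4.999%. Of 9162 genes with a mean of at least 10 CPM, 5628 had a CV under 5% and 30 (0.327%) had one over 20%.

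A few genes stood far from this spread. Nov, a secreted matrix-associated protein now named Ccn3, was at 5.10, 26.2 and 4.63 CPM, and replicate 2 was high. The water channel Aqp1 was at 19.8, 16.4 and 8.06 CPM and the growth factor binding protein Igfbp2 at 118, 120 and 63.0 CPM, and replicate 3 was low for both. Linc-md1, a noncoding RNA of muscle differentiation, was at 13.0, 20.9 and 21.3 CPM, with replicate 1 low. Different libraries thus stood apart for different genes. The surface antigen Ly6a, Cnn1, the cyclin Ccnd2, Mfsd10, Efhd1 and Cdhr1 completed the 10 genes with the highest CV. At the other end were Cct3, a chaperonin subunit, the calmodulin gene Calm3 and Snd1.

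**Figure D4:**
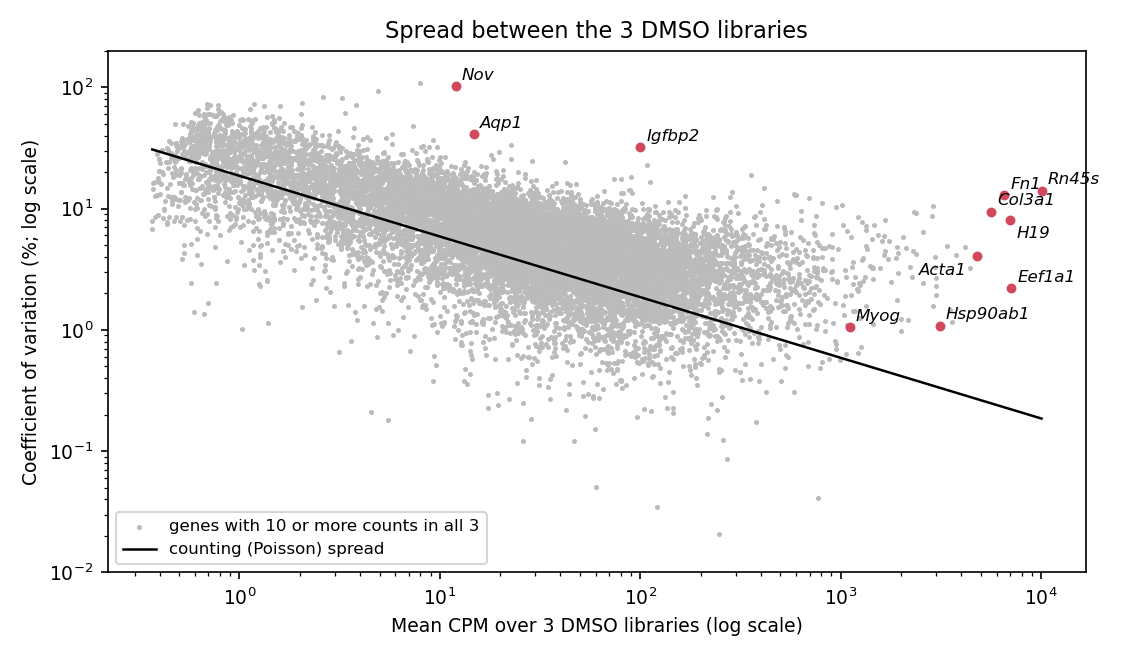
Coefficient of variation of CPM over the 3 DMSO libraries (y axis, %, log scale) against mean CPM (x axis, log scale) for the 12574 genes; the line is the spread that Poisson counting gives at these totals. Nov, Aqp1 and Igfbp2 lie above the cloud. Rn45s and Fn1 vary more than Eef1a1 and Hsp90ab1, and of these only Fn1 and Eef1a1 are at a like level.

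Sarcomere and matrix genes differed between libraries in opposite directions. Replicate 2 had the highest CPM for 30 of 44 sarcomere genes (68.2%) and 21 of 29 excitation-contraction genes (72.4%), whereas it was highest for 33.7% of all genes. Replicate 1 had the lowest CPM for 32 sarcomere genes and for 22 of 30 adult-fibre genes, against 35.3% of all genes. For the matrix list the order turned, with replicate 2 lowest for 24 of 33 genes (72.7%, against 32.2% of all genes) and replicate 1 highest for 19. Fn1 was at 7463, 5815 and 6351 CPM and Col3a1 at 5966, 5003 and 5867 CPM, both lowest in replicate 2. The shifts were small, with a median log2 deviation from the gene mean of −0.06, 0.05 and 0.01 for sarcomere genes and 0.06, −0.08 and −0.00 for matrix genes. The counts of 30 and 24 were the same with TMM and RLE scaling factors, tried after seeing the data, but these factors lay between 0.998 and 1.001 and so hardly alter the values. Genes of a list share the same 3 libraries and are not independent, and no test was made of this pattern.

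**Figure D5:**
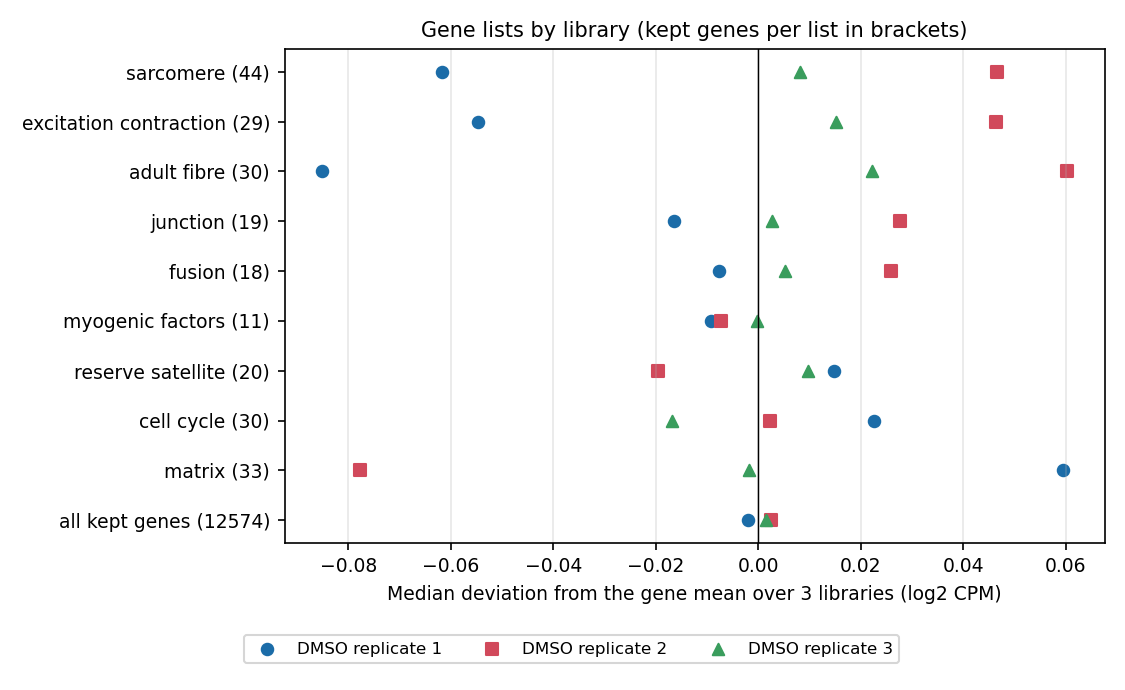
Median deviation of each gene list from the gene mean over 3 libraries (x axis, log2 CPM), with 1 symbol per DMSO library and the number of genes in brackets. Replicate 1 lies left and replicate 2 right for the sarcomere list, at −0.06 and 0.05, and the order is the opposite for the matrix list, at 0.06 and −0.08.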

How the data were processed

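RNA from C2C12 myotubes was sequenced with paired reads of 150 bases on an Illumina NovaSeq, per the labels' protocols. The authors deposited, for each library, a table of raw read counts by gene symbol. The submitters' processing notes name STAR, StringTie and DESeq2 with the builds GRCm38 and mm10. Versions, the annotation, the strand setting and the treatment of reads matching several genes were not stated there or in the labels. Only the 3 DMSO tables were used, grouped by their titles.

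Counts were divided by the library total to give CPM, and genes with at least 10 counts in all 3 libraries were retained. TPM used the union of annotated exons in GENCODE M21 (GRCm38), which matched 23379 symbols by name and 651 through RefSeq synonyms, and 381 were unmatched. Isoform shares are shares of count per kilobase within a library. Motifs were searched in the RefSeq promoter table (GRCm38.p6). Dispersion was estimated with edgeR 4.0.16, and RLE factors with DESeq2 1.42.0, in R 4.3.3; the steps were tested on simulated data. No test was made, since there is 1 group. Library totals of 25496323 to 32108033 set the precision, and a count of 0 allows up to 3 counts.

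Named genes were the top 20 by CPM and by TPM, all members of 34 isoform families, up to 6 highest members and every member without a count of each of 25 lists, common genes under 1 CPM, and the 10 highest and 10 lowest CVs among genes at 10 CPM or above. Eno1b, Hnrnpa1, Igf2 and other low or middle list members outside this rule were named after their values were seen. The members and lists were chosen with earlier results of these data known. Alternatives were other count minimums, length measures and scaling factors, no Rn45s, and leaving out each library. Counting Eno1b in the enolase family and rescaling the library-order counts were added after seeing the data. Mitochondrially encoded genes were not analysed here. Some genes that the rule takes are left out of the text.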

Additional observations from a re-analysis of the deposited data

How the results depend on the processing

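Of 72 alternative values for 14 results, 50 were classed as the same and 22 as moved. The limit was the SD between libraries, or 1.5 times for counts. Leaving out 1 of 3 libraries cannot shift a mean by that SD, so such values could only be classed as the same. Reversals were not assessed. The median CV has no such spread, and any change in the third digit was counted as a move. Without Rn45s the top 10 genes held 5.10% of counts and the top 100 held 20.1%. Per kilobase of the longest transcript, per kilobase of the longest coding sequence and without length, in that order, the share of Myh3 was 47.4%, 47.155% and 47.149%, that of Chrng 97.1%, 98.2% and 98.3%, and that of Eno3 98.3%, 97.0% and 97.0%. Eno3 held 85.4% with Eno1b in the family. Actc1 held 21.03% of striated actin by coding length and without length, and Cox6a2 held 34.7% per longest transcript and 40.2% by coding length. The median CV was 5.27% with RLE factors, 7.42% without a filter, 4.55% at a minimum of 100 counts, and 4.17% to 4.46% when 1 library was left out, where it comes from 2 libraries. Length choices change each gene's divisor and the filters change which genes enter; for the other changes the cause was not tested. Minimums of 5 and 20 counts kept 13096 and 12041 genes. Levels of Myog and Pax7 stayed within their spread under TMM and RLE factors, but these lay between 0.998 and 1.001 and could hardly move them. The levels also stayed within it without each library, where a larger move was not possible. The setting without mitochondrially encoded genes was not run. No paired analysis was possible because 1 group was used and no comparison was tested. Depth limits genes under about 10 CPM, and the SD between libraries does not cover the division of reads among near-identical genes.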
